A study of Mus musculus with 16 samples.

Results

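The mRNA levels of the NF-κB subunits and of the IκB proteins that hold or steer them were followed in bulk mRNA-Seq libraries of mouse lung group 2 innate lymphoid cells (ILC2s). The 10 genes were chosen by name, as the 5 genes of NF-κB subunits (*Nfkb1*, *Nfkb2*, *Rel*, *Rela*, and *Relb*), 3 typical IκB inhibitors (*Nfkbia*, *Nfkbib*, and *Nfkbie*), and 2 nuclear IκB proteins (*Nfkbid* and *Nfkbiz*), and all 10 were found among the 51912 genes of the count table. ILC2s came from the lungs of WT mice or of *Pac1-/-* mice, which constitutively lack the phosphatase PAC1 (gene *Dusp2*), both on the C57BL/6J background. The study used mice of 6 to 8 weeks. Cells of each genotype were kept for 4 hours with IL-7, with IL-7 plus IL-33, with IL-7 plus IL-33 plus the neuropeptide CGRP, or with IL-7 plus IL-33 plus the neuropeptide NMU (100 ng/mL of each cytokine and 500 ng/mL of each peptide in the study's stimulation protocol). In that protocol, sorted lung ILC2s were first expanded in culture with IL-2 and IL-7, which were removed before the stimuli were added. Each of the 8 combinations had 2 libraries, 16 in all, each from cDNA amplified out of about 500 sorted cells. All libraries received IL-7, so the group called IL-7 is the baseline, and the IL-33 group is the reference for both peptides. The labels do not say whether the 2 libraries of a combination came from separate mice or cultures, so the *P* values measure the spread between these libraries, which may be technical.

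NF-κB is a family of dimeric transcription factors. In resting cells, the typical IκB proteins keep the dimers in the cytoplasm, and receptors such as the IL-33 receptor ST2 act through MyD88, IRAK kinases, TRAF6, and the IKK complex to have IκB degraded, so that the dimers enter the nucleus. Several of the genes are themselves switched on by NF-κB, and the fresh IκBα made from *Nfkbia* carries the dimers back out of the nucleus. The nuclear IκB proteins bind NF-κB on DNA and change which genes it turns on. In ILC2s, IL-33 signaling through this pathway is known for driving cytokine production. CGRP acts through a receptor that raises cAMP, and NMU acts through the receptor NMUR1. An mRNA level says nothing on whether a subunit is in the nucleus, since the classical step is the loss of an IκB protein.

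Library totals ran from 6764992 to 15963357 counts (median 11071278). Levels are given as CPM, the count over the library total after TMM scaling, times 1000000, in which 3 counts equal 0.171 to 0.462 CPM. Each of the 10 genes was above 0 in all 16 libraries and passed the filter on low counts in every comparison. The lowest count was 10 (*Nfkb2*) and the highest was 31142 (*Nfkbia*). The 13 markers of ILC2s included *Gata3* at 496 to 1120 CPM and *Il1rl1*, which encodes ST2, at 517 to 1304 CPM, and none was at 0 in any library. *Dusp2* had no count in 8 of 8 *Pac1-/-* libraries but also none in 6 of 8 WT libraries, so its counts do not check the genotype labels. The *Pac1-/-* IL-33 replicate 2 had the highest TMM scaling factor, 1.27 against 0.899 to 1.15 in the other libraries.

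Compared between genes on a per-length scale (TPM, the count per base of annotated exon as a share of all genes, times 1000000), *Nfkbia* was first of the 10 genes in all 16 libraries. It averaged 1474 TPM and was never below 727 TPM, above the highest value of any other member, 252 TPM for *Nfkbiz*. *Nfkbiz*, which encodes the nuclear protein IκBζ, followed with a mean of 100.03 TPM, and *Nfkb1*, which encodes p105 and its product p50, had a mean of 44.9 TPM. *Rel*, *Nfkbib*, and *Rela* averaged 30.7, 29.3, and 28.2 TPM, and their ranges over the libraries overlapped widely. The lower end held *Nfkbid* (17.8 TPM), *Nfkbie* (14.2 TPM), *Relb* (10.6 TPM), and *Nfkb2*, which encodes p100 and p52 (8.81 TPM). Below *Nfkbia*, the range of every member overlapped that of its neighbor in this order. The order depends on the length used: over the longest annotated transcript instead of all exons, *Nfkb1* averaged 103 TPM and *Nfkbiz* 96.6 TPM. For *Nfkb1* that transcript has 4149 bases in 1 exon, against 12061 bases over all exons.

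In GENCODE release M21 (GRCm38), *Rel* lies at chr11:23736847-23770970 on the minus strand, *Nfkbia* at chr12:55489410-55492647 on the minus strand, *Nfkbiz* at chr16:55811375-55838899 on the minus strand, and *Nfkbid* at chr7:30421732-30428746 on the plus strand. *Nfkb1* lies at chr3:135584655-135691547 (minus), *Nfkb2* at chr19:46304320-46312385 (plus), *Rela* at chr19:5637483-5648130 (plus), *Relb* at chr7:19606217-19629438 (minus), *Nfkbib* at chr7:28758251-28767512 (minus), and *Nfkbie* at chr17:45555703-45563169 (plus). *Nfkbib* overlaps the genes *Ccer2* and *Sirt2* on the other strand, and *Nfkb2* overlaps *Psd* and AC114539.1 on the other strand. *Nfkb1* overlaps the gene model Gm43430 on its own strand. Whether counting used strand is not given in the sources used here, so reads shared by such neighbors cannot be assigned to a gene with certainty.

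RefSeq start sites (GRCm38.p6) were given for 7 of the 10 genes, in 11 windows of 250 bases before a start. The κB consensus, a 10-base motif bound by NF-κB, was searched on both strands and was found in 7 windows of 5 genes (*Nfkb2*, *Rel*, *Nfkbia*, *Nfkbie*, and *Nfkbid*). It occurred in 7.25% of all 32851 RefSeq promoter windows of this length. The windows of *Rel*, *Nfkbia*, and the middle start of *Nfkbid* are printed because these genes had higher counts with CGRP (given below), and because each holds the motif. They run 5′ to 3′ on the strand of the gene, end at the base before the start, and have the κB consensus matches in capitals. Matches on the 2 strands or in neighboring registers overlap and are printed as 1 run. They are at chr11:23770970-23771219 (minus strand), chr12:55492648-55492897 (minus strand), and chr7:30422156-30422405 (plus strand).
Rel: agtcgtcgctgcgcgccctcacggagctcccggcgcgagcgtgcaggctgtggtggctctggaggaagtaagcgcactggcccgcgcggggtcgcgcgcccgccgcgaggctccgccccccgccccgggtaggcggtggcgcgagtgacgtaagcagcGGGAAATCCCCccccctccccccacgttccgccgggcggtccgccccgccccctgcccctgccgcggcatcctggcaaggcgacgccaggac
Nfkbia: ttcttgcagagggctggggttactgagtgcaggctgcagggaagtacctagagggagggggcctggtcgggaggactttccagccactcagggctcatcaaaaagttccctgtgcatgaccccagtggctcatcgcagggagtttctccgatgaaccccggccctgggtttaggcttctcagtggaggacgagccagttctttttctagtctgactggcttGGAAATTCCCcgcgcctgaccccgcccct
Nfkbid: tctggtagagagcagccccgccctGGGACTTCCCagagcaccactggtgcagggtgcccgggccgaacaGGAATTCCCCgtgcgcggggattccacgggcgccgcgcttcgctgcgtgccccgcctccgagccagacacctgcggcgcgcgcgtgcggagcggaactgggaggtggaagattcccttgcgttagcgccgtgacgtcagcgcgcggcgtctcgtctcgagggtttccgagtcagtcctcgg
The *Nfkbid* window also holds TGACGTCA, the full cAMP response element that CREB binds, at 51 to 44 bases before the start. TGACGTCA was found in 1.55% of all the promoter windows. The shorter form TGACG, searched on both strands and contained in every TGACGTCA, was found once in the *Rel* window, at 105 to 101 bases before the start, and in 17.8% of all windows. It was also in 2 windows of *Nfkb2* and in the window of *Nfkbib*, members that were not called with CGRP. The windows of the first and the last *Nfkbid* start held no match to the κB consensus, TGACGTCA, or TGACG. Which start these cells use was not tested. A match describes the letters only, and binding was not measured here. *Nfkb1*, *Relb*, and *Nfkbiz* had no entry.

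The first comparison asked what CGRP added to IL-33. With CGRP, 4 of the 10 genes rose, namely *Rel*, *Nfkbia*, *Nfkbid*, and *Nfkbiz*, by 2.41- to 5.04-fold over the IL-33 libraries, and none fell (plot of the levels by library). These were 1 of 5 subunits, 1 of 3 typical inhibitors, and 2 of 2 nuclear IκB proteins. A gene was called when its fold change was above 1.5 and its Benjamini-Hochberg adjusted *P* value over all genes tested was under 0.05 in edgeR's quasi-likelihood test. Of all 13160 genes tested, 1.75% were called, and 1.53% were called higher. DESeq2 called the same 4 members, against 8.23% of all genes. In simulated counts for this comparison, 93 of 12058 genes were changed by a log2 fold of 1 and 96 by 2. There, 108 of the 167 DESeq2 calls were of genes that had not been changed. That share depends on how many genes were changed, so it does not give the share of false calls in the real data. The 4 CGRP libraries stood above the 4 IL-33 libraries, without overlap, for the same 4 members, and this held for 6.57% of all genes.

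**Figure D1:**
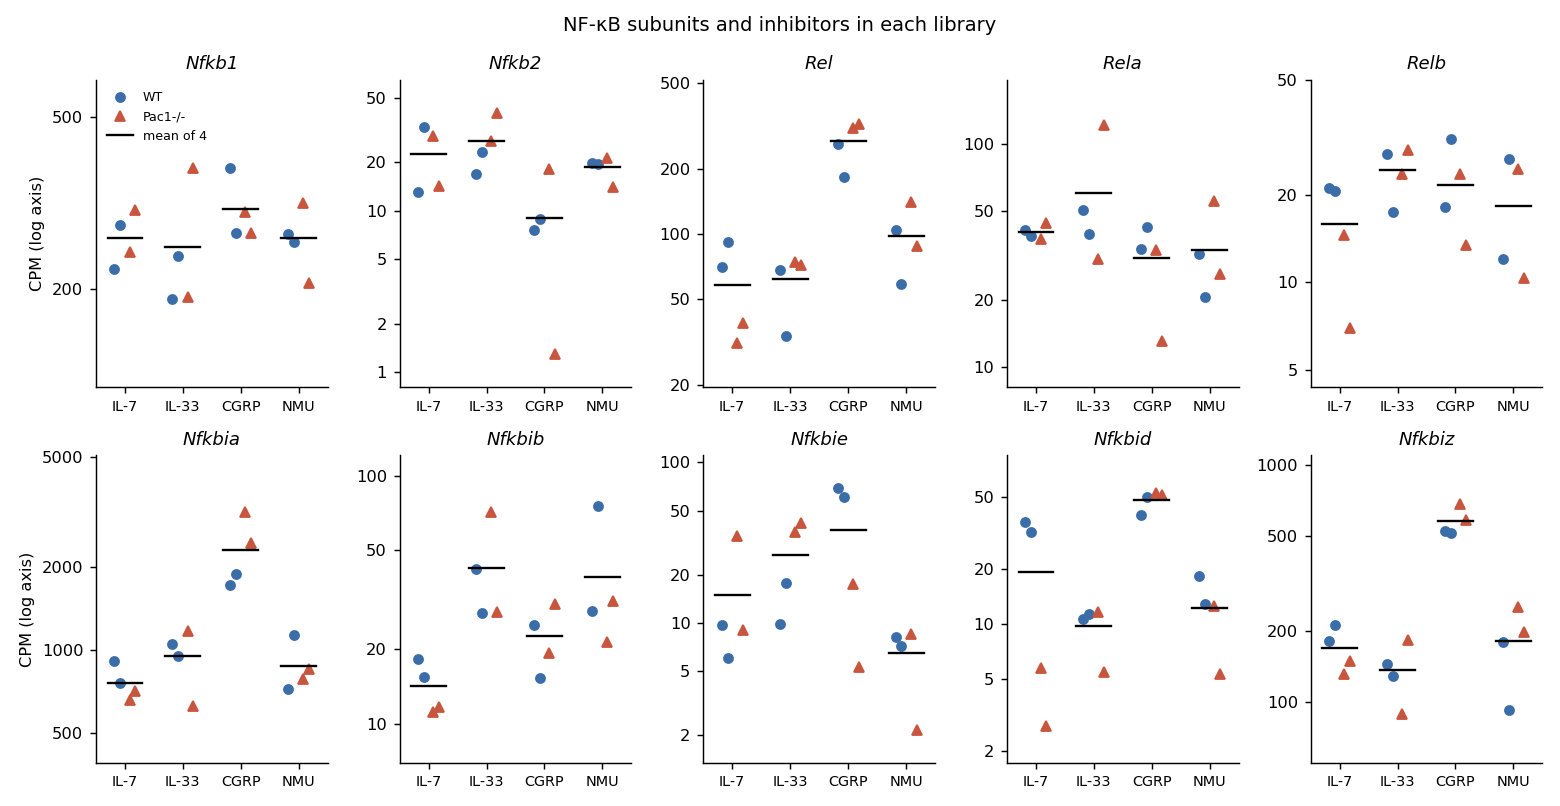
CPM (log axis, a different range in each panel) of the 10 genes in each of the 16 libraries, by treatment. Circles are WT libraries, triangles are *Pac1-/-* libraries, and lines are the mean of the 4 libraries of a treatment. For *Rel*, *Nfkbia*, *Nfkbid*, and *Nfkbiz*, the 4 CGRP libraries lie above the 4 IL-33 and the 4 NMU libraries.

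*Rel* encodes c-Rel, the subunit best known from activated lymphocytes. Its level was 67.9 and 33.7 CPM in the 2 WT libraries with IL-33 and 74.1 and 71.5 CPM in the 2 *Pac1-/-* libraries. With CGRP it was 261 and 183 CPM in WT and 308 and 322 CPM in *Pac1-/-*, so that every CGRP library was above every IL-33 library. The log2 fold change was 2.15 (SE 0.26), and the adjusted *P* value in edgeR's quasi-likelihood test was 0.00628. *Rel* kept its call in 15 of 15 alternative analyses of both genotypes together, with a log2 fold change of 1.94 to 2.35. For every gene, the 15 include the same fit with the fold cutoff dropped, in which a call cannot be lost.

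*Nfkbiz*, whose protein is needed for a subset of late NF-κB target genes, was at 145 and 128 CPM in WT and at 88.7 and 183 CPM in *Pac1-/-* libraries with IL-33. With CGRP it was at 529.7 and 516 CPM in WT and at 687 and 585 CPM in *Pac1-/-* libraries. Every CGRP library was thus well above every IL-33 library, with a log2 fold change of 2.10 (SE 0.25) and an adjusted *P* value of 0.00556 in edgeR's quasi-likelihood test. The call of *Nfkbiz* also held in 15 of 15 alternatives (log2 fold change of 1.89 to 2.30).

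*Nfkbia* encodes IκBα, the main cytoplasmic inhibitor. With IL-33 it was at 1047 and 948 CPM in WT and at 1170.3 and 624 CPM in *Pac1-/-* libraries. With CGRP it was at 1716 and 1875 CPM in WT and at 3161 and 2443 CPM in *Pac1-/-* libraries. The 2 *Pac1-/-* CGRP libraries were the highest of all 16, and the WT CGRP libraries came next. The log2 fold change was 1.27 (SE 0.24), with an adjusted *P* value of 0.0408 in edgeR's quasi-likelihood test. *Nfkbia* kept its call in 14 of 15 alternatives, and without *Pac1-/-* CGRP replicate 1 its adjusted *P* value in the same test was 0.0525.

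*Nfkbid* encodes IκBNS, a nuclear IκB protein. It was at 10.7 and 11.3 CPM in WT and at 11.7 and 5.46 CPM in *Pac1-/-* libraries with IL-33, and at 39.5 and 50.1 CPM in WT and 52.7 and 50.8 CPM in *Pac1-/-* libraries with CGRP. The groups did not overlap, and the CGRP libraries lay close together. The log2 fold change was 2.33 (SE 0.41), with an adjusted *P* value of 0.0309 in edgeR's quasi-likelihood test. This call was the least firm: it was kept in 6 of 15 alternatives, and leaving out any 1 of the 8 libraries gave adjusted *P* values of 0.0501 to 0.0932 in edgeR's quasi-likelihood test, with log2 fold changes of 2.09 to 2.49.

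The other 6 members had log2 fold changes of -1.52 to 0.32 and adjusted *P* values of 0.384 to 0.962 in edgeR's quasi-likelihood test. *Nfkb1* was at 190.0 to 381 CPM with IL-33 and at 269.8 to 381 CPM with CGRP. *Nfkb2* was at 17.0 to 40.6 CPM with IL-33 and at 1.29 to 18.1 CPM with CGRP, groups that overlapped only by *Pac1-/-* CGRP replicate 1 and WT IL-33 replicate 1. *Rela*, which encodes the p65 subunit of the classical p50:p65 dimer, was at 30.6 to 121 CPM with IL-33 and at 13.1 to 42.4 CPM with CGRP. *Relb*, the partner of p52, was at 17.5 to 28.5 and at 13.4 to 31.3 CPM. *Nfkbib*, which encodes the inhibitor IκBβ, was at 27.9 to 71.3 and at 15.2 to 30.4 CPM. None of these differences passed the test. In simulated counts for this comparison, edgeR recovered 2 of 93 genes changed by a log2 fold of 1 and 27 of 96 changed by 2. The lack of a call is thus not evidence of no change. The median log2 fold change of the 10 genes was 0.28, against -0.09 over all genes tested.

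**Figure D2:**
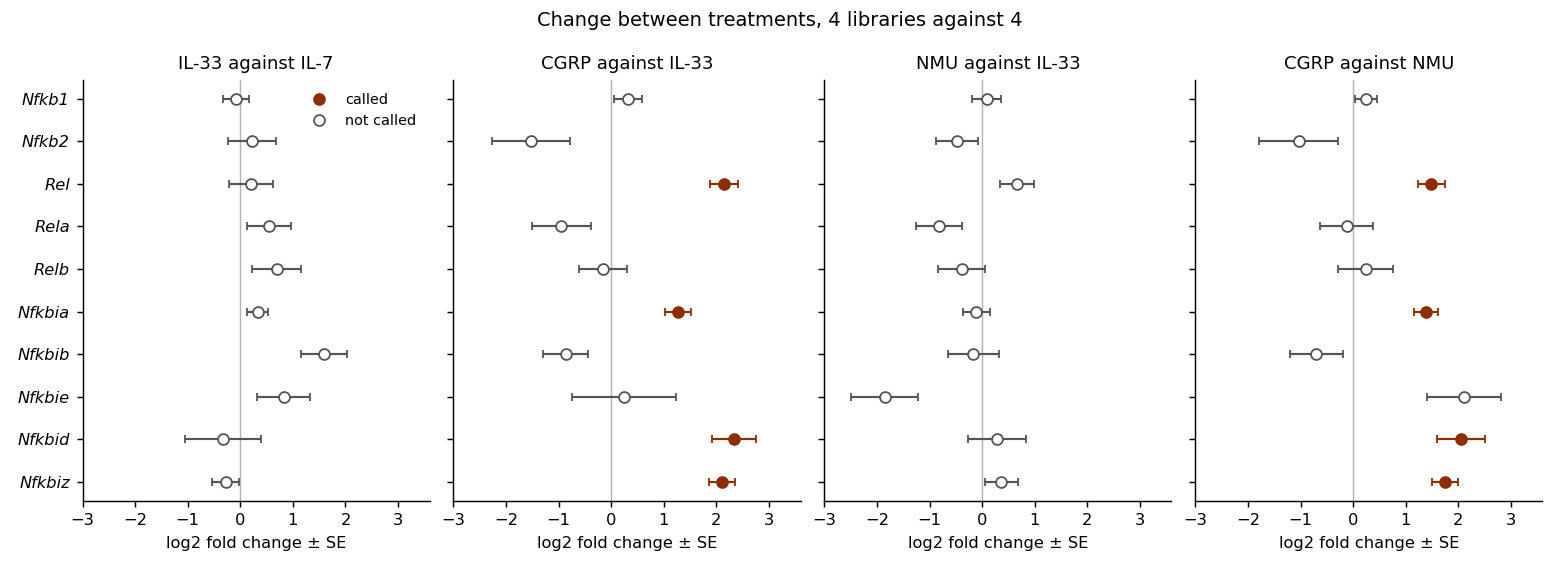
Log2 fold change of each gene in the 4 comparisons between treatments, both genotypes together (4 libraries against 4). Bars are the SE, and filled points passed the fold and adjusted *P* thresholds. *Rel*, *Nfkbia*, *Nfkbid*, and *Nfkbiz* are filled in the comparisons of CGRP with IL-33 and with NMU, and no gene is filled in the other comparisons.

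With *Rel* up and the other subunits not called, the make-up of the subunit mRNAs differed with CGRP (plot of the subunit shares). *Rel* made 9.68% to 20.8% of the summed TPM of the 5 subunits with IL-33 and 34.6% to 58.7% with CGRP. It made 8.93% to 20.2% with IL-7 and 16.6% to 27.2% with NMU. Over the longest transcripts instead of all exons, the ranges were 5.14% to 12.1% with IL-33 and 20.9% to 36.7% with CGRP, so the shares themselves depend on the length of *Nfkb1*, and the gap between the treatments was there with either. The TPM of *Rel* was 0.243 to 0.995 times that of *Rela* in the IL-33 libraries and 1.77 to 10.1 times that of *Rela* in the CGRP libraries. The largest ratio was in *Pac1-/-* CGRP replicate 2, which had the lowest *Rela* level of all libraries, 13.1 CPM. Shares sum to 100%, so a higher share of *Rel* lowers the others, and no test was run on them.

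**Figure D3:**
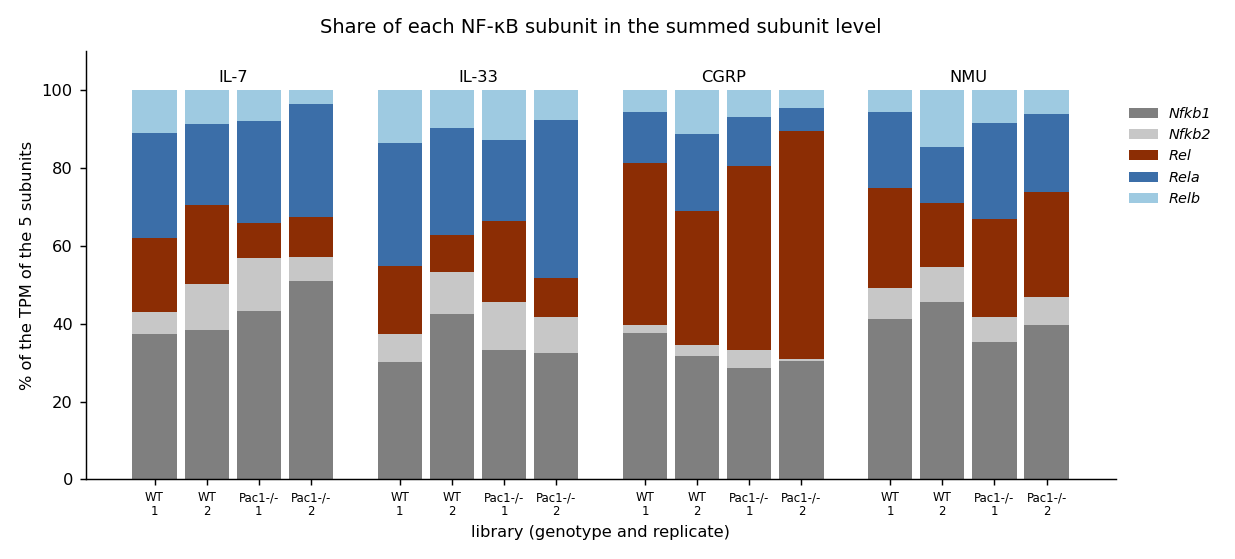
Share of each of the 5 subunit genes in their summed TPM (bars add up to 100%), in each library, grouped by treatment, genotype, and replicate. *Rel* takes 34.6% to 58.7% in the 4 CGRP libraries and at most 27.2% in the other 12.

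In contrasts of 1 fit of all 16 libraries, chosen after seeing the data, the CGRP response of *Rel* was a log2 fold change of 2.12 (SE 0.41) in WT and 2.11 (SE 0.41) in *Pac1-/-*, and that of *Nfkbiz* was 1.93 (SE 0.37) and 2.23 (SE 0.37). These 4 values passed, with adjusted *P* values of 0.0462, 0.0267, 0.0397, and 0.0120 in edgeR's quasi-likelihood test. *Nfkbia* had a log2 fold change of 0.85 (SE 0.29) in WT, where it was not called (adjusted *P* = 0.312 in edgeR's quasi-likelihood test), and of 1.64 (SE 0.30) in *Pac1-/-*, where it was (adjusted *P* = 0.0205). *Nfkbid* was called in neither genotype alone (log2 fold change of 2.02 in WT and 2.59 in *Pac1-/-*). Of all 14979 genes tested in this fit, 0.461% were called in WT and 1.14% in *Pac1-/-*. The direct test of the difference between the genotypes, the interaction of genotype and CGRP, called none of the 4 genes (and 0% of all genes), with log2 values of -0.04 (*Rel*), 0.26 (*Nfkbiz*), 0.77 (*Nfkbia*), and 0.55 (*Nfkbid*) and adjusted *P* values of 0.867 or more in edgeR's quasi-likelihood test.

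Some genes known from B cells had higher levels in the CGRP libraries. *Cd79b*, a chain of the B cell receptor complex, was at 34.8 and 61.8 CPM in WT and at 163 and 161 CPM in *Pac1-/-* libraries with CGRP, against 5.71 to 16.1 CPM with IL-33. *Ighm*, the μ heavy chain gene, was at 100.3 and 126 CPM in WT and at 251 and 156 CPM in *Pac1-/-* libraries with CGRP, against 38.2 to 96.6 CPM with IL-33. *Ms4a1*, which encodes CD20, was at 0 and 11.7 CPM in WT and at 84.5 and 75.3 CPM in *Pac1-/-* libraries with CGRP, and at 0 in 3 of the 4 IL-33 libraries. For *Cd79b* and *Ighm* all 4 CGRP libraries were above all 4 IL-33 libraries, and for each of the 3 genes the *Pac1-/-* CGRP libraries were the highest of these 8. The summed level of 6 mast cell and basophil markers was 315 to 333 CPM in WT libraries with CGRP, against 153 to 198 CPM in WT with IL-33. In *Pac1-/-* libraries the ranges overlapped, at 154 to 219 CPM with CGRP and 145 to 254 CPM with IL-33. Of these markers, *Mcpt8*, *Mcpt4*, and *Ms4a2* were at 0 in all WT libraries with CGRP or IL-33. Before the sort, the study's protocol used magnetic beads to remove most other blood cells of the lung, B cells and NK cells included. The part of other cells in the levels of *Rel*, *Nfkbia*, *Nfkbid*, and *Nfkbiz* was not tested. In bulk samples, a change in the share of a cell type and a change in RNA per cell cannot be told apart.

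NMU was the second peptide. Of the 10 members, edgeR's quasi-likelihood test called 0 between the NMU and IL-33 libraries, 1 had an unadjusted *P* value under 0.05, and DESeq2 called 0. Of all 12567 genes tested, edgeR called 0.103%, 7.73% had an unadjusted *P* value under 0.05, and DESeq2 called 1.34%. *Rel* was at 104 and 58.3 CPM in WT and at 140.0 and 87.5 CPM in *Pac1-/-* libraries with NMU, which overlapped its IL-33 range (log2 fold change of 0.66, SE 0.32, adjusted *P* = 0.658 in edgeR's quasi-likelihood test). *Nfkbia*, *Nfkbid*, and *Nfkbiz* had log2 fold changes of -0.11, 0.29, and 0.37, with overlapping groups. The member with an unadjusted *P* value under 0.05 was *Nfkbie*, which encodes the inhibitor IκBε. It was at 8.16 and 7.24 CPM in WT and at 8.51 and 2.16 CPM in *Pac1-/-* libraries with NMU, all below the lowest IL-33 library at 9.90 CPM. Its log2 fold change was -1.86 (SE 0.64), with an unadjusted *P* value of 0.0142 and an adjusted one of 0.545 in edgeR's quasi-likelihood test. Every NMU library was lower in 2.42% of all genes. The WT NMU libraries held more of 7 lung epithelium markers (summed 189 to 331 CPM, against 83.4 CPM or less in any other library) and of 8 macrophage and monocyte markers (52.8 to 124 CPM, against 23.2 CPM or less), and their part in these values was not tested. Of the macrophage and monocyte markers, 4 of 8 (*Csf1r*, *Itgax*, *Marco*, and *Mrc1*) were at 0 in both WT NMU libraries. So were 2 of the 7 epithelium markers (*Sftpb* and *Cdh1*).

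Set directly against each other, the CGRP and NMU libraries differed in the same 4 members, all higher with CGRP. This comparison shares the CGRP libraries with the one against IL-33, so it is not an independent repeat. The log2 fold change was 1.49 (SE 0.26) for *Rel*, 1.39 (SE 0.24) for *Nfkbia*, 2.05 (SE 0.45) for *Nfkbid*, and 1.74 (SE 0.24) for *Nfkbiz*, with adjusted *P* values of 0.0185, 0.0165, 0.0429, and 0.00715 in edgeR's quasi-likelihood test. Of all 12834 genes tested, 3.86% were called and 2.42% were called higher. None of the 4 genes had an NMU library as high as a CGRP library, which held for 7.92% of all genes in this direction. *Nfkbid* kept its call in 7 of 15 alternatives and the other 3 genes in 15 of 15. In the fit of all 16 libraries, 1 member was called in WT alone (*Nfkbiz*, against 1.34% of all genes) and 1 in *Pac1-/-* alone (*Nfkbia*, against 1.58%). *Nfkbie* had the largest fold change of the 10, a log2 value of 2.11 (SE 0.71), but was not called in edgeR's quasi-likelihood test (adjusted *P* = 0.152), with its groups overlapping through *Pac1-/-* CGRP replicate 2 at 5.30 CPM. DESeq2 called it (adjusted *P* = 0.0169, with 13.2% of all genes called), and so did edgeR's quasi-likelihood test over genes with at least 10 counts in every library (adjusted *P* = 0.0439).

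IL-33 itself was compared with IL-7 alone. Of the 10 members, edgeR's quasi-likelihood test called 0, 1 had an unadjusted *P* value under 0.05, and DESeq2 called 1. Of all 12980 genes tested, 0.0462% were called by edgeR, 10.5% had an unadjusted *P* value under 0.05, and 3.26% were called by DESeq2. The log2 fold changes of the 10 genes were -0.32 to 1.59, with a median of 0.27 against 0.09 over all genes. *Rel* was at 69.9 and 91.4 CPM in WT and at 31.2 and 38.5 CPM in *Pac1-/-* libraries with IL-7, around its IL-33 levels (log2 fold change of 0.20, SE 0.42). *Nfkbia* was at 908 and 761 CPM in WT and at 658 and 707 CPM in *Pac1-/-* libraries (log2 fold change of 0.33, SE 0.20). *Nfkbiz* was at 181 and 211 CPM and at 132 and 149.7 CPM (log2 fold change of -0.28, SE 0.26). Its IL-7 and IL-33 ranges overlapped, as did those of *Rel* and *Nfkbia*.

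The gene DESeq2 called with IL-33 was *Nfkbib*. It was at 18.3 and 15.4 CPM in WT and at 11.2 and 11.7 CPM in *Pac1-/-* libraries with IL-7, and at 41.9 and 27.9 CPM in WT and 71.3 and 28.1 CPM in *Pac1-/-* libraries with IL-33. All 4 IL-33 libraries were above all 4 IL-7 libraries, which held for 3.05% of all genes. The log2 fold change was 1.59 (SE 0.44), with an unadjusted *P* value of 0.00517 and adjusted *P* values of 0.361 in edgeR's quasi-likelihood test and 0.0309 in DESeq2. *Sirt2* and *Ccer2* overlap *Nfkbib* on the other strand, and reads of the 3 genes cannot be told apart if strand was not used. The IL-7 libraries also held more of 7 markers of NK cells and ILC1s (such as *Nkg7* and *Gzma*), with a summed level of 175 to 192 CPM in WT and 325 to 339.9 CPM in *Pac1-/-*, against 24.1 CPM or less in any other library. Of these markers, *Tbx21* was at 0 in every IL-7 library and *Ncr1* was at 0 in both WT libraries with IL-7. *Gzma* was at 0 in both WT libraries with IL-33. The summed level of 9 T cell markers was 1015 to 1068 CPM with IL-7 and 361 to 762 CPM with IL-33. *Cd4* and *Cd8a* were at 0 in every library of both groups. The part of other cells in the comparison was not tested.

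The genotypes were then compared within each treatment, 2 libraries against 2. In edgeR's quasi-likelihood test, 0 of the 10 members were called with IL-7, IL-33, CGRP, or NMU. The numbers with an unadjusted *P* value under 0.05 were 2, 1, 2, and 0, and DESeq2 called 1, 0, 1, and 0. Of all genes, edgeR called 0.00916%, 0.00874%, 0%, and 0.0282%, those with an unadjusted *P* value under 0.05 were 5.74%, 5.04%, 7.53%, and 5.04%, and DESeq2 called 0.715%, 0.568%, 1.86%, and 0.621% (plot of the genotype comparisons). With 2 libraries a group, groups did not overlap for 34%, 36.7%, 38.9%, and 36.3% of all genes, so a lack of overlap in a single comparison is common.

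**Figure D4:**
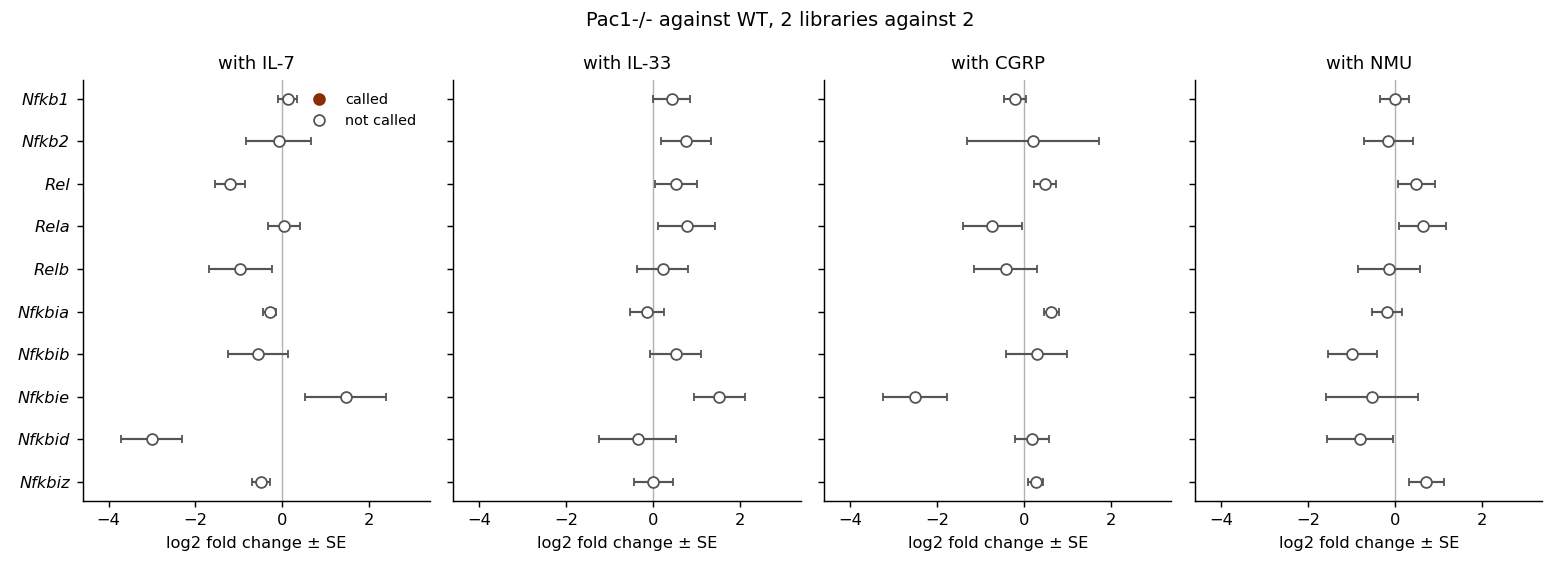
Log2 fold change of each gene in *Pac1-/-* against WT libraries within each treatment (2 libraries against 2), with the SE as bars. No gene passed the thresholds, so every point is open. *Nfkbid* with IL-7 and *Nfkbie* with CGRP lie farthest from 0, at -3.01 and -2.51.

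With IL-7 alone, *Nfkbid* was at 36.5 and 32.1 CPM in WT and at 5.76 and 2.77 CPM in *Pac1-/-* libraries. The WT level was close to that of the CGRP libraries, and the *Pac1-/-* level was at the low end of all libraries. The log2 fold change was -3.01 (SE 0.71), with an unadjusted *P* value of 0.00869 and adjusted *P* values of 0.726 in edgeR's quasi-likelihood test and 0.0378 in DESeq2. *Rel* was lower in the same *Pac1-/-* libraries, with a log2 fold change of -1.21 (SE 0.34, unadjusted *P* = 0.0177, adjusted *P* = 0.726 in edgeR's quasi-likelihood test). With all 4 treatments together (8 libraries against 8), *Nfkbid* had a log2 fold change of -0.93 (SE 0.44, adjusted *P* = 0.803 in edgeR's quasi-likelihood test), and the test called 0 of the 10 members against 0.0801% of all genes, with 0 at an unadjusted *P* value under 0.05 (6.15% of all genes) and 0 called by DESeq2 (0.514%).

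*Nfkbie* had genotype differences of opposite sign with IL-33 and with CGRP, as did *Rela* (log2 fold changes of 0.77 and -0.73), and neither was called. With IL-33 the *Rela* groups overlapped, at 50.7 and 39.3 CPM in WT and at 30.6 and 121 CPM in *Pac1-/-* libraries. Leaving out each library in turn gave *Rela* log2 fold changes of -0.54 to 1.45 there, so its sign with IL-33 was not stable. With IL-33 *Nfkbie* was at 9.90 and 17.6 CPM in WT and at 37.0 and 41.9 CPM in *Pac1-/-* libraries (log2 fold change of 1.53, SE 0.60, adjusted *P* = 0.913 in edgeR's quasi-likelihood test). With CGRP it was at 68.9 and 60.4 CPM in WT and at 17.6 and 5.30 CPM in *Pac1-/-* libraries (log2 fold change of -2.51, SE 0.75, adjusted *P* = 0.552 in edgeR's quasi-likelihood test). The 2 WT CGRP libraries were thus the highest of all 16, and in *Pac1-/-* both CGRP libraries were below both IL-33 libraries. In the test of the interaction of genotype and CGRP, *Nfkbie* had a log2 value of -4.04 (SE 0.99) with an unadjusted *P* value of 0.00344, an adjusted *P* value of 0.853 in edgeR's quasi-likelihood test, and 0.0148 in DESeq2. Leaving out each library in turn gave log2 values of -5.14 to -3.40 in the same test, and none of these was called. The test called 0 of 13160 genes, with 5.46% at an unadjusted *P* value under 0.05 and 0.859% called by DESeq2.

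*Nfkbia* was higher in *Pac1-/-* than in WT libraries with CGRP, at the levels given above (log2 fold change of 0.63, SE 0.17, adjusted *P* = 0.552 in edgeR's quasi-likelihood test and 0.0147 in DESeq2). These are the libraries with the higher levels of the B cell markers. In the interaction of genotype and IL-33, 0 of the 10 members were called by edgeR's quasi-likelihood test or by DESeq2, and 2 had an unadjusted *P* value under 0.05: *Rel* (log2 value of 1.74, SE 0.60) and *Nfkbid* (2.65, SE 1.07), both with an adjusted *P* value of 0.797 in edgeR's quasi-likelihood test. In the interaction of genotype and NMU, 0 were called by either tool and 0 had an unadjusted *P* value under 0.05. Of all genes, edgeR called 0% in each of the 3 interactions. With IL-33 and NMU, 5.65% and 6.37% had an unadjusted *P* value under 0.05, and DESeq2 called 0.493% and 0.294%.

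The rest of the pathway was followed in 4 lists of 64 genes in all, of which 61 were tested for CGRP against IL-33. With CGRP, 4 of 61 rose and 0 fell, against 1.53% and 0.213% of all genes (plot of the pathway lists). Of 12 genes of the receptor side (such as *Myd88* and *Traf6*), 0 passed. Of 11 genes of the IKK complex and related kinases, *Map3k8* rose. It encodes TPL2, the kinase that p105 holds, and went from 65.2 to 103 CPM with IL-33 to 384 to 533 CPM with CGRP (log2 fold change of 2.45, SE 0.23, adjusted *P* = 0.0016 in edgeR's quasi-likelihood test). Of 16 other negative regulators, *Tnfaip3* rose, which encodes the ubiquitin-editing enzyme A20 (log2 fold change of 1.14, SE 0.20, adjusted *P* = 0.0285 in edgeR's quasi-likelihood test). It lost its call when 4 of the 8 libraries were each left out, with adjusted *P* values of up to 0.0661 in that test. Of 22 target genes, *Gadd45b* (log2 fold change of 3.03) and the chemokine gene *Cxcl2* (2.10) rose. The lists' median log2 fold changes were -0.33, 0.02, -0.36, and 0.45 in the order given, against -0.09 over all genes.

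**Figure D5:**
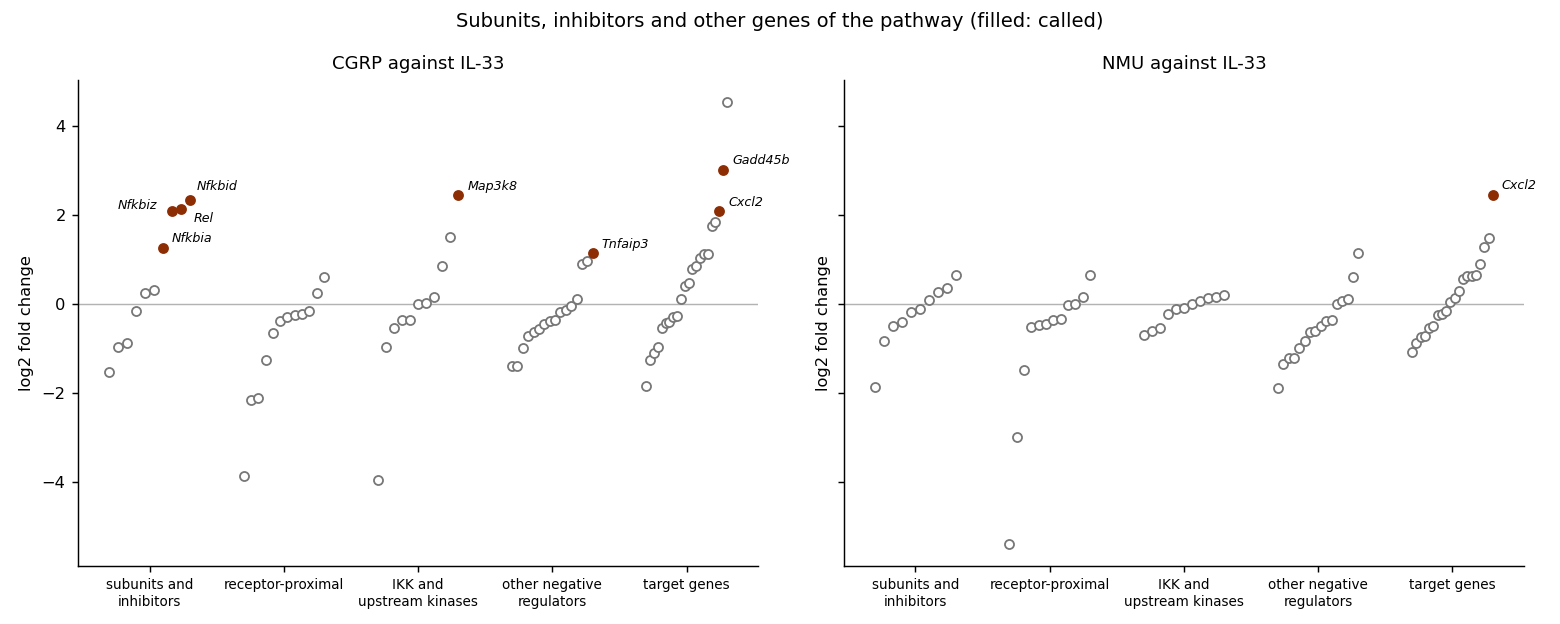
Log2 fold change of the 10 subunit and inhibitor genes and of the tested genes of 4 pathway lists, each point a gene, ordered by value within its list. Filled points passed the thresholds and are named. With CGRP 4 members and 4 other genes are filled, and with NMU only *Cxcl2*.

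With NMU against IL-33, where 0.103% of all genes were called, *Cxcl2* was the only gene called of the 59 tested in these lists (log2 fold change of 2.47, SE 0.29, adjusted *P* = 0.00689 in edgeR's quasi-likelihood test), at 267 to 398 CPM with IL-33 and at 946 to 2880.2 CPM with NMU. *Cxcl2* was thus higher with either peptide, while *Gadd45b* was at 153 to 231 CPM with NMU against 147 to 209 CPM with IL-33. Set directly against NMU, CGRP libraries were higher in 5 of 61 genes: *Map3k8*, *Tnfaip3*, *Gadd45b*, *Il1rl1*, and *Ccnd1* (2.42% of all genes were called higher). They were lower in 2 (1.44% of all genes), *Il2ra*, which encodes the IL-2 receptor α chain CD25 (log2 fold change of -1.15), and *Tnip3* (-2.13), whose product binds A20. *Il1rl1* had a log2 fold change of 1.14, and *Ccnd1*, which encodes cyclin D1, was at 3.4 to 13.1 CPM with CGRP and at 0 to 0.0901 CPM with NMU, so that it passed the filter on low counts only through the CGRP libraries, and its count among the 5 supports nothing. Its call was lost when 6 of the 8 libraries were each left out and in the fit of all 16 libraries (adjusted *P* = 0.0778 in edgeR's quasi-likelihood test). With IL-33 against IL-7 and in each of the genotype comparisons, 0 of the tested genes of these lists were called by edgeR's quasi-likelihood test, where the share of all genes called was itself 0% to 0.0801%.

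Across the 16 libraries, the levels of *Rel*, *Nfkbia*, *Nfkbid*, and *Nfkbiz* went together. Pearson's *r* of the log2 CPM was 0.70 to 0.89 over the 6 pairs of these genes. Without the 4 CGRP libraries it was -0.61 to 0.56, so the likeness rested on those libraries. The points share libraries, treatments, and scaling, and no test was run. Among the 4877 genes that averaged 20 CPM or more, those most like *Rel* were D16Ertd472e (*r* = 0.934), *Cd69*, an early activation marker of lymphocytes (*r* = 0.914), and *Nfkbiz* (*r* = 0.888). Those most like *Nfkbia* were *Fam122a* (*r* = 0.976), the pseudogene Rpl14-ps1 (*r* = 0.952), and *Gadd45b* (*r* = 0.951). *Nfkbiz* was most like *Tob2* (*r* = 0.940), Snhg8 (*r* = 0.939), and 2310001H17Rik (*r* = 0.936). *Nfkbid* was most like Gm36198 (*r* = 0.863), *Rps6kb1* (*r* = 0.842), and the immunoglobulin light chain gene *Iglc2* (*r* = 0.827), a gene of B cells. The closest gene was *Pdia6* for *Nfkbib* (*r* = 0.913), *Crk* for *Rela* (*r* = 0.873), *Rhof* for *Relb* (*r* = 0.809), *Aebp2* for *Nfkbie* (*r* = 0.777), and *Satb1* for *Nfkb1* (*r* = 0.770).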

How the data were processed

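ILC2s from mouse lung were sequenced as bulk mRNA-Seq (paired-end, NovaSeq). The authors aligned reads with HISAT2 to mm10 (per the labels and the study's methods) and deposited raw gene counts, not normalized; the counting tool, the annotation used for counting, and the strand setting are not given in the sources used here. Symbols, positions, and lengths came from GENCODE M21, which held 51633 of the 51912 gene IDs, and promoters from RefSeq (GRCm38.p6). Counts were scaled by TMM over the 16 libraries. Each comparison was fitted to its own libraries with edgeR 4.0.16 (quasi-likelihood, filterByExpr, R 4.3.3), with genotype or treatment as covariate, and Benjamini-Hochberg adjustment over all genes tested. A call needed a fold above 1.5 and an adjusted *P* under 0.05. SE is the log2 fold change over the root of *F*. Alternatives were DESeq2 1.42.0, other filters and scaling, the adjusted *P* cutoff alone, a replicate block, 1 fit of all libraries, and leaving out each library. Fits were also tested on simulated data. There, most genes that DESeq2 called between genotypes with CGRP and in the interaction with CGRP had not been changed. The same held for CGRP against IL-33 (108 of 167 calls). Between genotypes over all treatments, 51 of 111 DESeq2 calls were of unchanged genes. Between genotypes with CGRP and in the interaction, edgeR recovered few or none of the changed genes. For CGRP against IL-33 it recovered 2 of 93 genes changed by a log2 fold of 1 and 27 of 96 changed by 2. The share of unchanged genes among the calls depends on how many genes the simulation changed. It does not give the share of false DESeq2 calls in the real data, so a DESeq2 call alone is to be read with care. The lack of edgeR calls is not evidence of no change. Same-numbered libraries did not deviate together (28 pairs of groups, *r* of -0.064 to 0.039), so replicate numbers were taken as names. The 10 genes are named as members of the series' NF-κB group. Other genes are named where called in the 4 pathway lists, or among the 3 genes most like a member. Genes and lists were chosen with earlier results of these data known.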

Additional observations from a re-analysis of the deposited data

Results flagged for a closer look

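With 4 libraries in each of 40 groups (10 genes and 4 treatments), 3 groups held a library far from the others by Dixon's test, where chance gives about 1 in 20 (2 of 40). *Rel* with IL-33 was at 33.7 CPM in WT replicate 2 and at 67.9 to 74.1 CPM in the other libraries. *Nfkbie* with IL-7 was at 34.6 CPM in *Pac1-/-* replicate 1 and at 6.05 to 9.73 CPM in the others. *Nfkbid* with IL-33 was at 5.46 CPM in *Pac1-/-* replicate 2 and at 10.7 to 11.7 CPM in the others.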

How the results depend on the processing

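The number of all genes called moved with the filter, the tool, and single libraries, while the 4 members called with CGRP against IL-33 were 4 with DESeq2. With no filter the number of all genes called was 201 (IL-33 against IL-7, 6 in the report), 639 (CGRP against IL-33), 77 (NMU against IL-33), 1102 (CGRP against NMU), 28, 18, 82, and 32 (*Pac1-/-* against WT with IL-7, IL-33, CGRP, and NMU), 62 (all treatments), and 20, 44, and 20 (interactions with IL-33, CGRP, and NMU). In the same order DESeq2 gave 423, 1083, 169, 1691, 78, 65, 203, 66, 77, 64, 113, and 37. With at least 10 counts in every library it was 10, 465, 27, 859, 2, 6, and 1 for the first 6 of these and for NMU. The fit of all 16 libraries gave 413 (CGRP against IL-33), 28 (NMU against IL-33), 820 (CGRP against NMU), and 16 (*Pac1-/-* against WT with CGRP). DESeq2 called 1 member each for IL-33 against IL-7, for *Pac1-/-* against WT with IL-7 and with CGRP, and for the interaction with CGRP. In contrasts within WT, taken from the fit of all 16 libraries, 2 members were called with CGRP against IL-33 and 1 against NMU. Within *Pac1-/-*, 1 was called with CGRP against NMU. These contrasts were chosen after seeing the data. Leaving out 1 library at a time gave 12 to 37, 133 to 243, 15 to 38, and 252 to 429 genes called in the treatment comparisons, 0 to 0 (IL-7), 0 to 103 (IL-33), and 1 to 77 (NMU) between genotypes, and 0 to 6, 0 to 56, and 0 to 21 in the interactions, with 2 to 3 members called for CGRP against IL-33 and 3 to 4 against NMU. The lone library of a combination is then assumed to vary like the others.

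Under the replicate block, *Nfkbid* lost its call against IL-33 (adjusted *P* = 0.0512) and against NMU (adjusted *P* = 0.0655) in edgeR's quasi-likelihood test, and *Pac1-/-* against WT with IL-7 called 0 genes; it changed no other call of a member. Directions turned only for members not called. For CGRP against IL-33 these were *Nfkb1* (-0.00104) and *Nfkbie* (-1.78) in the contrast within *Pac1-/-*, and *Relb* in that within WT (0.13). When 1 library was left out they were *Relb* (-0.42 to 0.025) and *Nfkbie* (-0.63 to 1.13). For CGRP against NMU they were *Rela* in the contrast within WT (0.54), and *Rela* (-0.39 to 0.24) and *Relb* (-0.0030 to 0.55) when 1 library was left out. Counts as low as 10 limit what can be seen for *Nfkb2*.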
